A study of Mus musculus with 10 samples.

Results

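The genes described here encode protein parts of the spliceosome, the RNA and protein machine that removes introns from pre-mRNA. Its small nuclear ribonucleoproteins (snRNPs) each pair a small nuclear RNA with a ring of Sm or LSm proteins and with proteins of their own. U1 recognises the 5′ splice site and U2 the branch site near the 3′ splice site. The U4/U6.U5 tri-snRNP then joins, the Prp19-containing complex (NTC) helps to activate the assembled machine, and SR proteins guide it to exons. Mutations in several of these genes cause human disorders of the face and eye, although the genes are used in every cell.

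Expression was measured on Affymetrix 3′ arrays in mouse embryos at stage E10.5, in microdissected tissue that held the hindbrain and the first 4 pharyngeal arches, the swellings that give rise to the face and neck. There were 5 arrays of Fbln1-null embryos, homozygous for a gene trap inserted in Fbln1, and 5 of wildtype embryos. By its title, the series asked how fibulin-1, a glycoprotein of the extracellular matrix, affects signalling by the growth factor FGF8. Matings between heterozygous carriers of the gene trap produced the embryos. The trap was carried in the germline and not limited to a cell type, and the labels give neither litter nor sex. In such bulk tissue, fewer cells of a type and less RNA per cell cannot be told apart.

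The list held 41 genes, chosen by name from the known composition of the spliceosome and read by platform gene symbol. It was not drawn up blind to these data, since the results for Htatsf1 and Snrpc were already known. Each gene was read on its brightest probe set by mean over all 10 arrays. Of the 41, 34 had at least 1 probe set annotated to that gene alone, and 31 of these passed the expression filter, a log2 value over 4 on at least 5 arrays. Sf3a2, Sf3b4 and Snrpn were under it. Snrpa, Snrpd1, Snrpd2 and Lsm5 were represented only by probe sets annotated to several genes, and Snrpf, Prpf4 and Srsf7 had no probe set in the annotation used, so these 7 are given no value. All values are GCRMA log2 signals, and every fold change is the mean of the null arrays minus the mean of the wildtype arrays on that scale. Levels of splicing genes are compared between genotypes for 1 probe set at a time, and not between genes. Medians over genes, sums of marker signals and differences between probe sets are described where they are used.

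Fbln1 and a set of tissue markers were read first, to check the labels. The brighter Fbln1 probe set, itself under the filter, read 2.52 to 2.85 in null arrays, near the bottom of the scale, against 3.83 to 5.11 in wildtype arrays. The difference in log2 signal was -1.88 (p = 0.00794 in a two-sided exact permutation test, the lowest value this design allows), and its size depends on the floor: with values under log2 4 raised to 4 it was -0.58 (exact permutation p = 0.0476). Where the trap lies relative to the probes was not analysed here. Of the hindbrain markers on the array 3 of 7 were over the filter (Hoxa2, Sox2 and Pax6), and Egr2, Hoxb1, Hoxb2 and Gbx2 were not. Of the arch mesenchyme markers 5 of 11 were over it, with Twist1 and Prrx1 among them and Dlx5, Hand1 and Hand2 near the bottom of the scale. Array medians lay between 3.20 and 3.29, and correlations between arrays over probe sets were 0.985 to 0.996. Wildtype replicate 4 was the only array with Xist signal (9.68) and without Y-linked signal.

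Splicing genes leaned towards lower signal in null tissue, and the size of the lean differed between groups. The median log2 fold change was -0.28 over the 10 U2 genes, -0.18 over 6 SR genes, -0.05 over 4 Sm genes, 0.04 over 4 LSm genes and 0.05 over 5 PRP genes, while the U1 group held only 2 genes, Snrpc at -0.98 and Snrnp70 at -0.34. Of the 31 genes tested, 22 had a lower mean in null tissue (71%), against 56.9% of all 5910 genes over the filter. The median log2 fold change was -0.15, against -0.04 over all genes. Htatsf1 was the 1 gene past a Benjamini-Hochberg adjusted limma p of 0.05, and 0 were higher; over all genes 0.0338% were past it. At the looser adjusted p of 0.1 there were 2, Htatsf1 and Snrpc, against 0.491% of all genes. Without adjustment, 5 of the 31 had a limma p under 0.05, all lower (16.1%), against 8.98% of all genes lower and 3.84% higher. These were Htatsf1, Snrpc, Prpf19, U2af1 and Sf3a3. The list was drawn up with the results for Htatsf1 and Snrpc already known, so its counts are a description. The lean depended in part on scaling: with quantile normalization between arrays 20 of 31 splicing genes (64.5%) and 49.2% of all genes were lower, with medians of -0.11 and 0.004. The same 5-to-0 split at an unadjusted p of 0.05 was found under quantile normalization and with each array centred on its median, while among all such genes the lower share moved to 53.7% and 50.3%, against 70.1% as deposited.

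**Figure D1:**
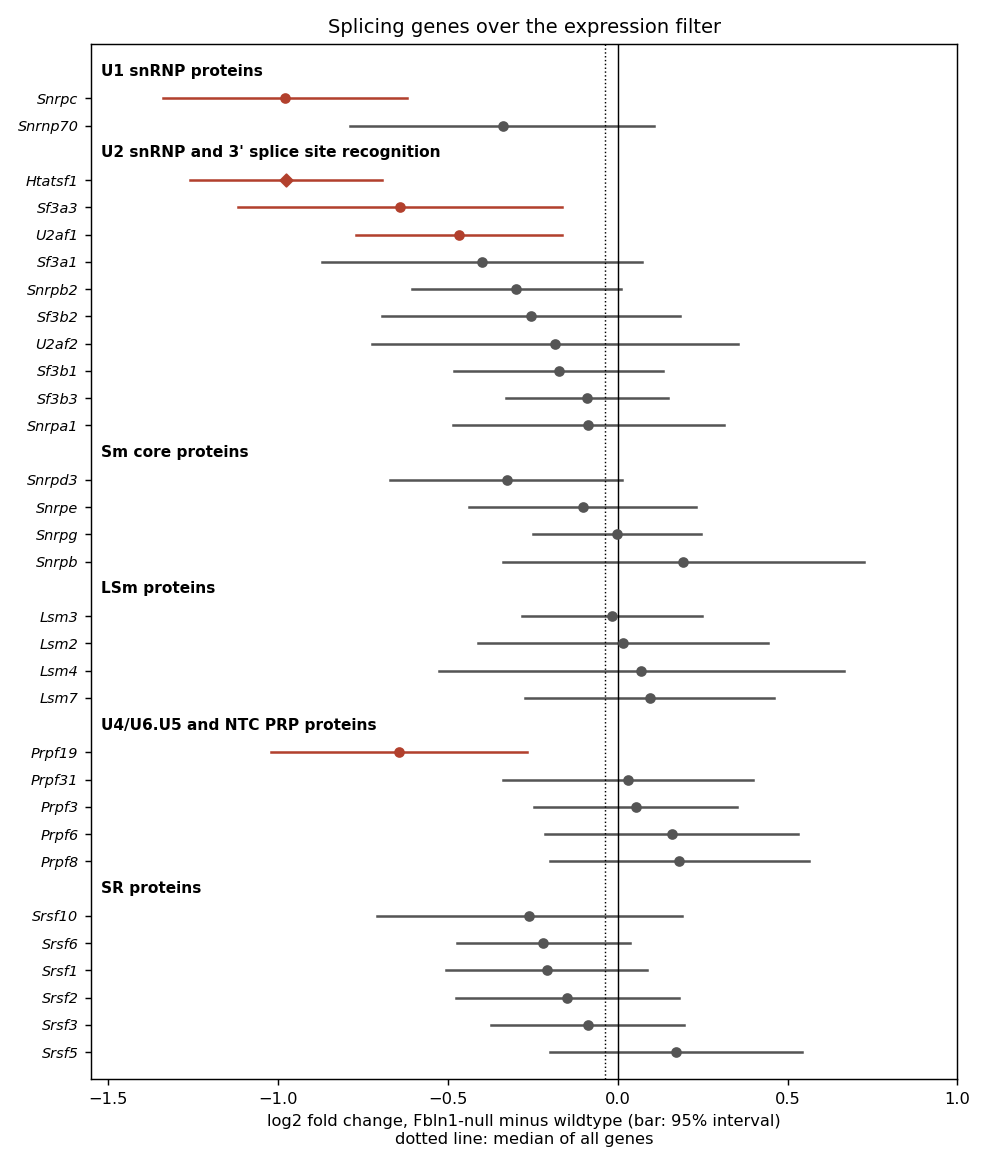
Log2 fold change (Fbln1-null minus wildtype, x axis) of the 31 splicing genes over the expression filter, by group; bars are 95% limma intervals, red marks an unadjusted p under 0.05 and the diamond (Htatsf1) an adjusted p under 0.05. All 10 genes of the U2 group lie left of 0, while the LSm genes and the PRP genes other than Prpf19 lie near 0 or right of it.

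Of the U1 proteins, Snrpc had the larger difference between the genotypes, with a lower mean in null tissue. Snrpc encodes U1-C, the zinc-finger protein that helps U1 to hold the 5′ splice site. Its log2 signal in null replicates 3, 4, 5, 7 and 8 was 7.001, 6.539, 6.461, 6.329 and 6.359, against 7.472, 7.640, 7.130, 7.833 and 7.511 in wildtype replicates 1 to 5. The highest null array lay just under the lowest wildtype array, so the groups did not overlap. The log2 fold change was -0.98 (SE 0.17, 1.97-fold), and its limma adjusted p of 0.0633 missed the threshold. With a filter at log2 6, with array weights, with probe sets averaged per gene, or without wildtype replicate 3 or null replicate 3, the adjusted p was 0.0332 to 0.0420, and under the other alternatives it was up to 0.278. Snrnp70, the U1 protein that binds the first stem-loop of U1 RNA, averaged 6.59 ± 0.38 in null and 6.93 ± 0.34 in wildtype tissue (SD, n = 5 each), a log2 fold change of -0.34 with a 95% interval of -0.79 to 0.11. The groups overlapped, and the interval contains 0.

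On the brightest probe sets, the 10 listed genes of U2 and of 3′ splice site recognition that were tested had lower means in null tissue, and 1 of them fell. Htatsf1 encodes the RNA-binding protein TAT-SF1, which associates with U2 snRNP and was first known as a factor of transcription elongation. Its log2 signal was 8.88, 8.86, 8.49, 8.56 and 8.41 in null replicates 3, 4, 5, 7 and 8, against 9.47, 9.54, 9.64, 9.80 and 9.64 in wildtype replicates 1 to 5. The gap between the highest null and the lowest wildtype array was wider than the spread within either genotype. The log2 fold change was -0.98 (SE 0.13, 95% interval -1.26 to -0.69, limma adjusted p = 0.0292), a 1.97-fold lower signal. The call did not survive every left-out array: leaving out wildtype replicate 1, 2, 4 or 5, or null replicate 5, 7 or 8, gave adjusted limma p-values of 0.0643 to 0.130, with log2 fold changes of -1.01 to -0.92. Over all alternatives the adjusted p ran from 0.013 to 0.226, with 0.109 once the actin probe difference described below was a covariate. Htatsf1 is X-linked, and wildtype replicate 4, with its Xist signal, had the highest value. Without that array the log2 fold change was -0.93 (adjusted p = 0.0718). Both further Htatsf1 probe sets were under the filter, with log2 fold changes of 0.22 (SE 0.22) and 0.20 (SE 0.17).

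U2af1 and Sf3a3 had lower means without passing the test. U2af1, the small subunit of the factor that reads the AG at the 3′ splice site, had 8.43, 8.53, 8.58, 8.65 and 8.97 in null replicates 3, 4, 5, 7 and 8, against 8.89, 9.12, 8.91, 9.30 and 9.29 in wildtype replicates 1 to 5. Only null replicate 8 reached into the wildtype range (log2 fold change -0.47, SE 0.14, limma adjusted p = 0.235). Sf3a3, a subunit of the SF3a complex of U2, had 7.27, 7.54, 7.15, 7.50 and 7.62 in the same null arrays, against 7.48, 7.57, 8.30, 8.71 and 8.21 in wildtype arrays. Wildtype replicates 1 and 2 lay within the null range, and wildtype replicates 3, 4 and 5 above it (log2 fold change -0.64, SE 0.22, limma adjusted p = 0.295). Without wildtype replicates 1 and 2 it was -0.99, and with the 3′ to 5′ difference of the actin control probes as a covariate, a marker of RNA integrity, it was -0.34. That difference was 2.19 to 2.85 in null arrays and 2.0 to 2.38 in wildtype arrays. The same difference for the Gapdh control probes ran the other way on average, at 1.81 ± 0.17 in null and 1.96 ± 0.24 in wildtype arrays (SD, n = 5 each), with overlap between the genotypes for both controls.

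The other U2 genes lay closer to 0. Sf3a1, which joins Sf3a3 in SF3a, had a log2 fold change of -0.40 (95% interval -0.87 to 0.07), and Snrpb2, the U2-B″ protein that binds U2 RNA, had -0.30 (-0.61 to 0.01). Its partner Snrpa1, U2-A′, had -0.09 (-0.49 to 0.31). Of the SF3b complex, which clamps the branch site, Sf3b1 had -0.17, Sf3b2 -0.26 and Sf3b3 -0.09, each with an interval that contains 0. Dimmer probe sets differed in sign: 2 of 3 for Sf3b1 (0.10 and 0.15) and 2 of 4 for Sf3b2 (0.09 each) had higher means. Outside the list of 41, further genes that act with U2 differed in sign, each with an interval that contains 0. Puf60 (0.08) and Ddx46 (0.03) had higher means. Sf3b6 (-0.30), Rbm17 (-0.30), Sf1 (-0.28), Phf5a (-0.063), Dhx15 (-0.055) and Sf3b5 (-0.035) had lower means. U2af2, the large subunit that binds the polypyrimidine tract, had -0.18 (-0.72 to 0.35), and without null replicate 7, which read 4.74 against 5.59 to 5.67 in the other null arrays, it was -0.009. Under the filter, Sf3b4 had 3.02 to 3.67 in null arrays against 3.62 to 4.49 in wildtype arrays, and Sf3a2 had 3.28 to 4.45 in null arrays against 3.25 to 4.89 in wildtype arrays. At such levels GCRMA compresses differences, and among all 22626 probe sets the limma adjusted p was 0.621 for Sf3b4 and 0.990 for Sf3a2.

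**Figure D2:**
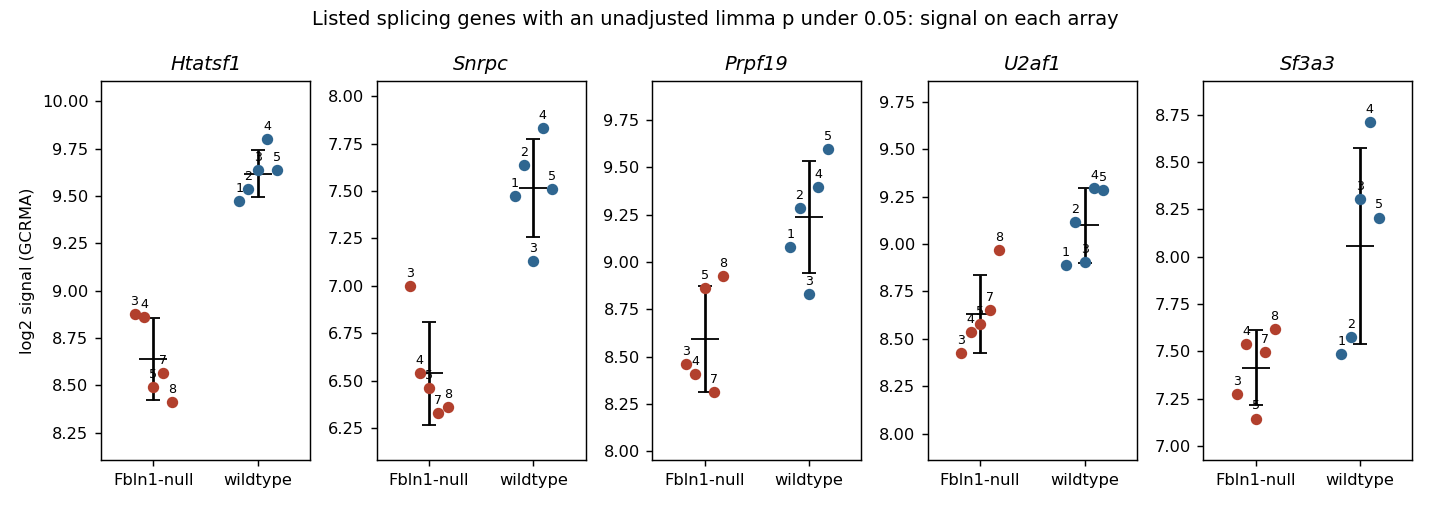
Log2 signal on each array for Htatsf1, Snrpc, Prpf19, U2af1 and Sf3a3 (y axis, each panel spanning 2 log2 units); points are arrays numbered by replicate, red for Fbln1-null and blue for wildtype, with mean and SD in black. The genotypes do not overlap for Htatsf1 and Snrpc, whereas null replicate 8 reaches the wildtype range for U2af1, null replicates 5 and 8 do so for Prpf19, and wildtype replicates 1 and 2 lie in the null range for Sf3a3.

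Complete separation of the genotypes was uncommon across the list. All null arrays lay below all wildtype arrays for 2 of the 31 genes, Htatsf1 and Snrpc, against 2.03% of all genes, and 0 of the 31 had all null arrays above, against 0.846% of all genes. The results for these 2 genes were known when the list was drawn up, so the count is a description and no support.

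The promoters of the 3 genes with the smallest p are shown, since the values above turn on these genes. Each sequence is the 250 bases before the first listed transcript start (RefSeq, GRCm38.p6), 5′ to 3′ on the strand of the gene. Capitals mark every match, on either strand, to one of 4 short motifs. These were CCGGAAG, known as the core of an ETS-type site, and the pentamer CCAAT, for which the box is named. The others were GGGCGG, known as the GC box, and TATAAA, the usual form of the TATA box. Htatsf1 lies at chrX:57053320-57053569, Snrpc at chr17:27839837-27840086 and Prpf19 at chr19:10894981-10895230, all on the plus strand.
Htatsf1: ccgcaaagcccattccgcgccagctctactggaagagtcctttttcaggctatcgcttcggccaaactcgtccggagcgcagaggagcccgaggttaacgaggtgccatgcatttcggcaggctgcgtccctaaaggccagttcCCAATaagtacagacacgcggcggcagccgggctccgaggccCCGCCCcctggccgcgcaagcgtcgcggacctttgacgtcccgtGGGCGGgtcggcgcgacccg
Snrpc: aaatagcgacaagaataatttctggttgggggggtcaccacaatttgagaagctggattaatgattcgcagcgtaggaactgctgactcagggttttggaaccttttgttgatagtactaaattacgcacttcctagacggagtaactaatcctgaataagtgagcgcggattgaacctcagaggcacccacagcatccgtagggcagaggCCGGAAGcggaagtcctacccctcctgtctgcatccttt
Prpf19: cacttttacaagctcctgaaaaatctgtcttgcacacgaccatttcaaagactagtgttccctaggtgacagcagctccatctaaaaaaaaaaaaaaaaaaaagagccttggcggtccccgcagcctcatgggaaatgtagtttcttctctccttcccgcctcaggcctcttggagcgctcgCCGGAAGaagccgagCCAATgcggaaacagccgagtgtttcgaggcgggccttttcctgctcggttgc

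Snrpc held 1 ETS-type core, at positions -39 to -33 from the transcript start, and Prpf19 held 1 at -68 to -62 with a CCAAT box at -53 to -49. Htatsf1 held no ETS-type core in this window, but a CCAAT box at -106 to -102 and GC boxes at -64 to -59 and -20 to -15. A RefSeq promoter was found for 36 of the 41 genes and for 28 of the 31 tested. The ETS-type core was found in 9 of those 28 promoters (32.1%) and in 21 of 94 promoters of other splicing genes (22.3%), against 7.07% of all 27025 promoters of the same length. The GC box was found in 57.1% of the 28 and in 58.5% of the promoters of other splicing genes, against 33.0% of all promoters. In the same order, the shares were 46.4%, 39.4% and 34.5% for the CCAAT box and 10.7%, 8.51% and 13.0% for the TATA box. The 4 motifs share no letters in these 3 windows. A match to these letters describes the sequence and does not show that a factor binds there.

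On the brightest probe sets, Prpf19 was the 1 of the 5 listed PRP proteins of the tri-snRNP and the NTC with a lower mean in null tissue. Prpf19 is the ubiquitin ligase at the core of the NTC. Its log2 signal was 8.46, 8.41, 8.86, 8.31 and 8.93 in null replicates 3, 4, 5, 7 and 8, against 9.08, 9.28, 8.83, 9.40 and 9.60 in wildtype replicates 1 to 5. Null replicates 5 and 8 overlapped wildtype replicate 3, and all other null arrays lay below the wildtype range. The log2 fold change was -0.64 (SE 0.17, limma adjusted p = 0.179), and a second probe set of like brightness had -0.72 (SE 0.18). The dimmest Prpf19 probe set had -0.03 (SE 0.24). Prpf8, the large U5 protein at the catalytic centre, had 0.18 (95% interval -0.20 to 0.56), and Prpf6, which bridges U5 and U4/U6, had 0.16 (-0.21 to 0.53). Prpf3 and Prpf31, both of the U4/U6 particle, had 0.05 (-0.25 to 0.35) and 0.03 (-0.34 to 0.40). Of these 4 intervals, that of Prpf31 overlaps the interval of Prpf19, -1.02 to -0.27, and the difference between the genes was not tested. A dimmer Prpf6 probe set had -0.43 (SE 0.25), and the second Prpf31 probe set had -0.175 (SE 0.14), so both genes differed in sign between probe sets. Outside the list of 41, the genes for NTC proteins, step factors, helicases and the exon junction complex had lower means in 20 of 24 cases. Among genes that belong to or join the NTC, Rbm22 (-0.40), Isy1 (-0.41) and Crnkl1 (-0.15) were lower. Bcas2 (-0.084) and Cdc5l (-0.026) lay closer to the wildtype level, and Plrg1 (0.135) and Cwc15 (0.128) had higher means. By the limma fit 0 of these 24 passed an adjusted p of 0.05, and 3 were lower and 1 higher at an unadjusted p of 0.05.

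The Sm ring showed no common direction. Snrpg and Snrpe, small members of the ring, had log2 fold changes of -0.002 (95% interval -0.25 to 0.24) and -0.10 (-0.44 to 0.23), the first with a sign that flips under other scalings. Snrpb, which encodes SmB, had 0.19 (-0.34 to 0.72), and 0.002 without wildtype replicate 3, which read 6.84. Snrpd3, encoding SmD3, had -0.33 (-0.67 to 0.01) on its brightest probe set and is taken up with the probe sets below. By the limma fit 0 of the 4 Sm genes tested passed an adjusted or an unadjusted p of 0.05. The single probe set annotated to Snrpn alone, the neuronal counterpart of Snrpb in a parentally imprinted region, stayed at 2.66 to 2.72 in null and 2.66 in wildtype arrays, near the bottom of the scale. Snrpn shares 4 further probe sets with Snurf, which are given no value here.

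LSm proteins form the ring that caps the 3′ end of U6 RNA, and the 4 listed ones had fold changes near 0. Lsm2 had a log2 fold change of 0.02 (95% interval -0.41 to 0.44), Lsm3 -0.02 (-0.28 to 0.25), Lsm4 0.07 (-0.53 to 0.67) and Lsm7 0.09 (-0.27 to 0.46). By the limma fit 0 of these 4 passed an adjusted or an unadjusted p of 0.05, and the sign for Lsm3 flips with scaling. Outside the list of 41, Lsm8, the ring member particular to U6, had -0.35 (-0.68 to -0.02) and Lsm1, of the cytoplasmic ring that acts in mRNA decay, had -0.29 (-0.64 to 0.07), and neither passed after adjustment. Among the 31 listed genes over the filter, Lsm4 was the least even in wildtype tissue, with an SD of 0.60 over the 5 arrays, against 0.08 for Prpf31, the most even one.

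Of the 6 listed SR proteins tested, 5 had lower means in null tissue, and 0 passed an adjusted or an unadjusted limma p of 0.05. Srsf1, the founding SR protein, averaged 12.35 ± 0.22 in null and 12.55 ± 0.16 in wildtype tissue (SD, n = 5 each), a log2 fold change of -0.21 (95% interval -0.50 to 0.09). Srsf6, which binds exonic enhancers, had -0.22 (-0.47 to 0.04), and Srsf10, a splicing repressor when dephosphorylated, had -0.26 (-0.71 to 0.19). Srsf2 had -0.15 and Srsf3, the smallest SR protein, -0.09, while Srsf5 was the 1 with a higher mean, at 0.17 (-0.20 to 0.54). Outside the list of 41, the SR protein Srsf4 had -0.60 (-1.17 to -0.02), further from 0 than any of these 6, and Srsf9 had -0.25 (-0.77 to 0.27). Neither passed after adjustment. Over the 31 genes, 26 of the unadjusted 95% intervals contained 0, and their median half-width was 0.37 on the log2 scale. In simulated data with 200 changed probe sets the adjusted test recovered 16.4% of changes of log2 0.5, so changes of that size would mostly be missed.

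Several probe sets read the same gene for 16 of the 31, and they often differed. The 34 genes had 75 probe sets, of which 65 were over the filter, 43 of them with a lower mean in null tissue. Counting all 65, 6 were lower and 3 higher at an unadjusted limma p of 0.05. Both counts lie near the shares of all probe sets, 8.56% lower and 3.84% higher. At an adjusted p of 0.05 there was 1, that of Htatsf1, against 0.0204% of all probe sets. In 6 of the 16 genes all probe sets had the same sign and in 10 they did not. Srsf1 was the most uniform of the large sets, with 5 of 6 probe sets between -0.25 and -0.10 and the last at 0.02. Snrpb2 had -0.30 and -0.41, and Snrpg -0.002 and -0.05.

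Snrpd3 carried the widest split, with a range of 0.86 between its probe sets. Its brightest probe set read 10.84, 10.69, 10.95, 10.61 and 11.07 in null replicates 3, 4, 5, 7 and 8, against 10.84, 11.04, 11.16, 11.64 and 11.13 in wildtype replicates 1 to 5. The second read 8.19, 8.00, 8.26, 8.62 and 9.02 in the same null arrays, against 8.00, 7.64, 7.89, 8.15 and 7.74 in wildtype arrays. So the first tended to be lower and the second higher in null tissue, with overlap between the genotypes on both. The log2 fold changes were -0.33 (SE 0.16) on the first, 0.53 (SE 0.19) on the second and 0.38 (SE 0.17) on the third. The second and the third had an unadjusted limma p under 0.05, and 0 of the 3 passed after adjustment. Of the 6 Srsf3 probe sets 4 had a lower mean and 2 a higher one, and the dimmest, at 0.45 (SE 0.19), was the 1 with an unadjusted limma p under 0.05. Sf3a3 had -0.64 on one probe set and -0.10 (SE 0.17) on another of like brightness.

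**Figure D3:**
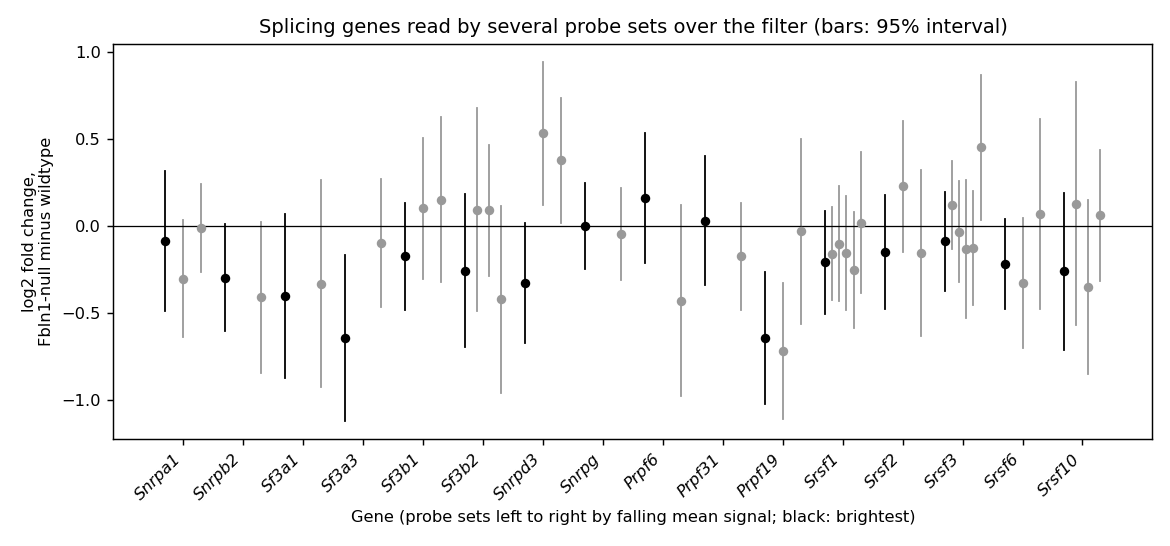
Log2 fold change (Fbln1-null minus wildtype, y axis) of every probe set over the filter for the 16 splicing genes that have more than 1; bars are 95% limma intervals, black is the brightest probe set of the gene and grey the others in order of falling signal. The Snrpd3 probe sets lie on both sides of 0, at -0.33, 0.53 and 0.38, while both brighter Prpf19 probe sets lie at -0.64 and -0.72.

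Other genes of the splicing pathway were read for context: further snRNP proteins, NTC and step factors, SR-related regulators, hnRNP proteins, and snRNP assembly and minor spliceosome genes. Platform symbols matched 119 of them. The filter kept 114, of which 80 had a lower mean in null tissue (70.2%), with a median log2 fold change of -0.08. By the limma fit 0 of 114 passed an adjusted p of 0.05, while 13 were lower and 3 higher at an unadjusted p of 0.05 (11.4% and 2.63%), against 8.98% and 3.84% of all genes. With each array centred on its median the split was 5 lower and 5 higher, and with quantile normalization 8 and 5. Without wildtype replicate 2 alone 4 were lower of 7 in all, and without null replicate 7 there were 8 of 9. Without wildtype replicate 4 or with embryo sex as a covariate 8 of 10 were lower.

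Ddx39a, a helicase close to the one that loads U2, had the smallest p of them. Its brightest probe set read 8.47, 8.53, 8.49, 8.65 and 8.94 in null replicates 3, 4, 5, 7 and 8, against 8.96, 9.35, 9.18, 9.63 and 9.07 in wildtype replicates 1 to 5. Null replicate 8 came close to the wildtype range without entering it. The log2 fold change was -0.62 (SE 0.15, limma adjusted p = 0.129), and the other 3 probe sets over the filter had -0.93, -0.53 and -0.56. Hnrnpa1, an abundant hnRNP that opposes SR proteins, had 11.09 to 11.21 in null and 11.38 to 11.63 in wildtype arrays (-0.38, SE 0.10, limma adjusted p = 0.182), with -0.21 and 0.26 on its dimmer probe sets. Hnrnpm had -0.40, Pcbp1, a poly(C)-binding protein, -0.51 and Pdcd7, a protein of the minor U11/U12 particle, -0.38. The 3 higher at an unadjusted limma p of 0.05 were Esrp1, an epithelial splicing regulator, at 0.41, Alyref, an mRNA export adaptor, at 0.73 and Hnrnpl at 0.53, with all null arrays above all wildtype arrays for Hnrnpl alone. From Hnrnpm to Hnrnpl, the 6 genes had adjusted limma p-values of 0.300 to 0.339.

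Array by array, the 31 listed splicing genes stood lower in null tissue by a small margin. Each gene was expressed as a deviation from its own mean over the 10 arrays, and the median over the 31 genes was taken per array. This median was -0.03, -0.15, -0.17, -0.04 and 0.01 in null replicates 3, 4, 5, 7 and 8, against 0.07, 0.13, 0.04, 0.06 and 0.13 in wildtype replicates 1 to 5. The lowest wildtype array, replicate 3, lay just above the highest null array, replicate 8. For the 114 other splicing genes the genotypes overlapped, at -0.136 to -0.005 in null and -0.015 to 0.103 in wildtype arrays. Between 10 and 16 of the 31 genes were above their own mean in a null array, against 18 to 22 in a wildtype array. Over all genes the same median ran from -0.04 to 0.02 in null and from -0.01 to 0.07 in wildtype arrays, highest in wildtype replicate 2.

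**Figure D4:**
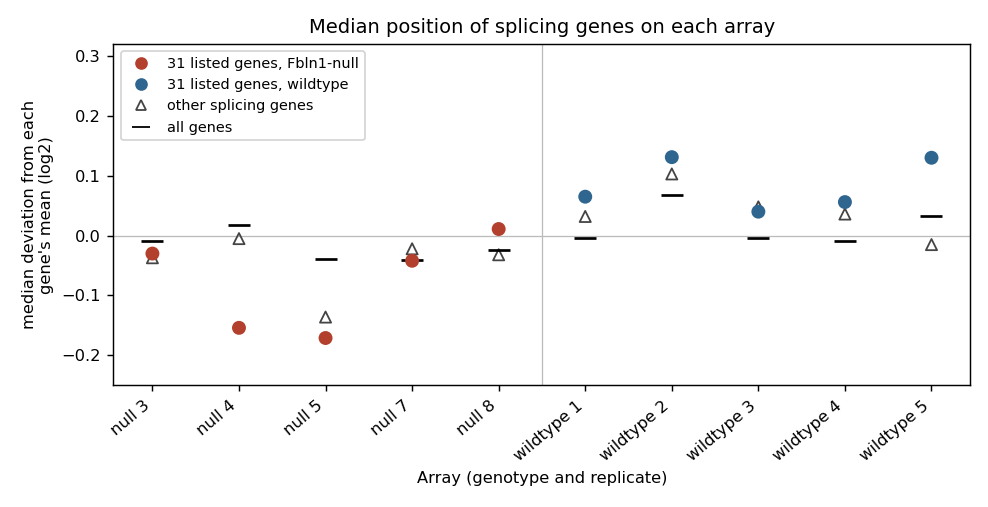
Median deviation of genes from their own mean over all arrays (log2, y axis) on each array (x axis), for the 31 listed splicing genes (filled circles, red Fbln1-null and blue wildtype), the 114 other splicing genes (triangles) and all genes (dashes). The listed genes run from -0.17 to 0.01 in null arrays and from 0.04 to 0.13 in wildtype arrays.

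Markers of the dissected tissues, and of others that may come with them, were read beside these values. The summed signal of 7 hindbrain markers was 7.46 to 8.39 in null and 8.00 to 8.72 in wildtype arrays, lower in its extremes in null tissue. Sox2 was the brightest of them, and the sum leans on it. The 3 over the filter all had lower means in null tissue. Their log2 fold changes were -0.52 (SE 0.15) for Pax6, a factor of neural progenitors, -0.44 (SE 0.31) for Sox2 and -0.22 (SE 0.18) for Hoxa2. None of them passed after adjustment. The 11 arch mesenchyme markers summed to 10.57 to 11.12 in null and 10.66 to 11.05 in wildtype arrays. The summed signal of 7 erythroid markers was 13.5 to 14.2 in null and 13.0 to 14.2 in wildtype arrays. For 8 heart markers it was 7.13 to 7.52 in null and 7.07 to 7.74 in wildtype arrays, for 6 endothelial markers 8.39 to 8.54 in null and 8.21 to 8.68 in wildtype arrays, and for 6 muscle and somite markers 9.29 to 9.50 in null and 9.18 to 9.63 in wildtype arrays, all as log2 of the sum. Embryonic globins were the bright part of the erythroid sum, while Gata1, Klf1 and Alas2 were under the filter, as were Nkx2-5, Myh6 and Nppa of the heart list and Pecam1 and Cdh5 of the endothelial list. Likewise Pax3 was the brightest marker in the muscle and somite sum, Actc1 in the heart sum and Tek in the endothelial sum. Each of those sums leans on that gene. The ranges overlapped between the genotypes for each of the marker lists, and their part in the splicing gene values was not tested.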

How the data were processed

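Biotin-labelled cRNA was made from total RNA with the Affymetrix 3′ IVT Express chemistry, per the labels' protocols, and each sample had 1 array. The values deposited by the authors are on a log2 scale. GCRMA is the tool that the submitters' processing notes name, without a version. GCRMA gives 1 value per probe set and compresses dim ones towards a floor.

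Of 22690 probe sets, 64 controls were left out. Of the other 22626, 20380 had 1 symbol, 691 several and 1555 none, and only the first were named. The filter (over log2 4 on at least 5 of 10 arrays) kept 9801 probe sets. The genotypes were compared with limma 3.58.1 (lmFit, eBayes) in R 4.3.3, two-sided, with genotype alone in the model and Benjamini-Hochberg adjustment over all 9801. The labels do not state separate litters, so the p-values cover only the spread among these 10 samples, which may be partly technical, and the number of arrays limits precision. On simulated data for this comparison, the fit over 9801 probe sets recovered 16.4% of changes of log2 0.5 and 87.2% of log2 1. The simulation changed 200 probe sets and drew independent noise for each. In the deposited values only 2 passed, which makes the adjusted threshold stricter, so these percentages do not carry over and recovery is likely lower.

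The genes and lists were chosen with earlier results of these data known. Full values were given for listed genes at an unadjusted p under 0.05, and up to 5 other splicing genes per direction were named by smallest p. Of 149 other splicing symbols, 119 were found. Snrpd3, Srsf3 and the probe set comparison were singled out after their values were seen. Outside the list, so were Lsm1, Lsm8, Srsf4, Srsf9, Rbm22, Isy1, Crnkl1, Puf60 and Ddx46. The other U2 and NTC genes named from outside the list were also added with their values known. Alternatives changed the scaling, the filter or floor, the variance model, weights for arrays, the probe sets used and the arrays included, or added a replicate block or embryo sex. A covariate for the actin probes was added after the data were seen.

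Replicate numbers 3, 4 and 5 occur in both genotypes. Deviations of same-numbered arrays correlated at -0.19, -0.34 and 0.16, so the numbers were not taken to pair the samples.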

Additional observations from a re-analysis of the deposited data

Results flagged for a closer look

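In 5 of 80 sets of 5 arrays, 1 array stood apart from the others, by a gap of more than 0.71 of the whole range (chance alone gives about 1 in 20). U2af2 read 4.74 in null replicate 7, against 5.59 to 5.67 in the other null arrays. Snrpb read 6.84 in wildtype replicate 3, against 7.67 to 7.91 in the others, and Lsm2 read 5.40 in the same array, against 6.03 to 6.28. Snrpe read 10.74 in wildtype replicate 4, against 11.18 to 11.34 in the other wildtype arrays. Lsm4 read 7.92 in null replicate 5, against 6.87 to 7.16 in the other null arrays. Without the array that stood apart, the log2 fold change (null minus wildtype) was -0.009 for U2af2, 0.002 for Snrpb, -0.14 for Lsm2, -0.21 for Snrpe and -0.10 for Lsm4, against -0.18, 0.19, 0.02, -0.10 and 0.07 with all arrays. The sign thus turned for Lsm2 and Lsm4, and no adjusted limma p was under 0.618.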

How the results depend on the processing

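At the settings of the report 2 probe sets of all and 1 of the 31 genes passed. The count over all probe sets was 1 without a filter, 34 with a log2 6 filter, 34 with array weights, 8 with a trended and robust variance and 46 at an adjusted p of 0.1. It was 0 with the embryo sex covariate, with the actin probe covariate, with the replicate block and without wildtype replicates 1 and 2, where limma gave 1069, 1194, 1318 and 1107 at an unadjusted p of 0.05, and 0 to 7 with 1 array left out. The count of listed genes was 2 with a log2 6 filter, array weights, averaged probe sets or an adjusted p of 0.1. It was 0 without a filter, with the sex or actin covariate, the replicate block, or without wildtype replicates 1 and 2, where 8, 5, 4, 6 and 7 stood at an unadjusted limma p of 0.05. With 1 array left out it was 0 to 2, and 5 to 7 stood at an unadjusted p of 0.05. The median of the listed genes stayed below 0 in all 22 alternatives, -0.20 to -0.11 with 1 array left out. Of the other splicing genes, 16 at an unadjusted p of 0.05 became 10 with arrays centred on the median, with the sex covariate or without wildtype replicates 1 and 2, and 7 to 17 with 1 array left out. The Fbln1 difference was -0.58 with values under log2 4 raised to 4 (exact permutation p = 0.0476). With the replicate block the Fbln1 log2 fold change was -1.65 (exact permutation p = 0.250, the smallest that 3 pairs allow). Null replicates 3 and 4 correlated best with other wildtype numbers. Htatsf1, Snrpc, Prpf19, U2af1 and Sf3a3 kept a lower signal in all 22 alternatives. These genes were picked by their p on the same arrays that the alternatives reuse, so this is no independent support. The sex covariate gave the same fit as leaving out wildtype replicate 4. The causes were not tested. Dim genes such as Sf3b4 and Snrpn are limited by the floor of the scale.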

Other observations

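The split between Snrpd3 probe sets was compared over all genes, a comparison chosen after these values were seen. For each of 2031 genes with at least 2 probe sets over the filter, the brightest minus the second was taken on each array and fitted with limma. For Snrpd3 this difference was 2.647, 2.699, 2.693, 1.997 and 2.049 in null replicates 3, 4, 5, 7 and 8, against 2.832, 3.392, 3.271, 3.488 and 3.398 in wildtype replicates 1 to 5. All 5 null arrays lay below all 5 wildtype arrays, and the change in the difference was -0.86 (SE 0.19, 95% interval -1.27 to -0.45). It did not pass after adjustment over the 2031 genes (limma adjusted p = 0.110), where 1 gene did. Prpf6 had 0.59 (SE 0.21) and Sf3a3 -0.54 (SE 0.20), so that 3 of the 16 listed genes stood at an unadjusted p of 0.05, against 12.7% of all genes compared. Which transcripts each probe set reads was not analysed here.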
